A study of Arabidopsis thaliana with 18 samples.

Results

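A set of 66 probe sets, of 22746 on the array, had more transcript in Arabidopsis root cultures under the safener fenclorim than under either its solvent or the compound CMP, at both 4 h and 24 h. Members were chosen on the measured values themselves. The mean log2 signal of the 3 fenclorim arrays had to lie at least 1 above acetone and at least 1 above CMP at 4 h and again at 24 h, with a fenclorim mean of at least 6 (a signal of 64) at both times. This held for 79 probe sets. The rule then left out 5 by gene symbol (glycosyltransferases, tau class glutathione transferases, organelle genes and a few single genes) and 8 that stood at least 2 above acetone with both compounds at both times. Of the 66 members, 29 carry 1 gene name in the annotation used here and 37 are not listed there, so they stay unnamed.

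The cultures were wild type Arabidopsis thaliana Col-0 roots, kept without light in Gamborg's B5 medium at 25 °C and used at 14 days. They were sampled after 4 h or 24 h with the solvent acetone, with CMP or with fenclorim, which makes 6 groups of 3 ATH1 arrays each. The labels give no dose, do not say what CMP stands for, and number the replicates without saying that they were separate cultures. Any p-value here is thus set against array-to-array variation that could be technical alone, and the small number of arrays limits precision.

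Safeners such as fenclorim protect cereals from herbicides by raising enzymes that conjugate, oxidise and export foreign compounds, and they switch on related genes in Arabidopsis. Roots also carry suberin, a polyester of fatty acids, glycerol and phenolics laid down in the wall of the endodermis. It is made by fatty acyl hydroxylases, acyltransferases, lipid transfer proteins and GDSL-type esterases. Auxin, the growth hormone of roots, is inactivated by oxidation, which the DAO dioxygenases carry out, and by conjugation to sugars or amino acids.

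The labelled tissue could be checked with few markers. PYK10, an abundant root beta-glucosidase, read 2721 to 3458 in acetone at 4 h and 2202 to 3036 at 24 h. In fenclorim it read 3854 to 4243 and 4353 to 4660.5, above every acetone array. In CMP it read 2403 to 3072 and 2677 to 4323, below every fenclorim array of the same time. Of 6 root hair markers 2 were named on the array, EXPA7 and EXPA18, and none of the 3 endodermis, 5 vasculature or 3 leaf markers was. The summed root hair signal was 23.8 to 80.6 and 25.1 to 97.1 in acetone at 4 h and 24 h. It was 6.79 to 14.7 and 4.71 to 28.5 in fenclorim, and 8.92 to 18.6 and 10 to 26.2 in CMP. These signals are dim, and EXPA7 did not pass the filter on low signals. By limma EXPA18 was lower than in acetone in fenclorim at 24 h (-2.79 ± 0.83, adjusted p = 0.0138). No call was made in fenclorim at 4 h (adjusted p = 0.125) or in CMP at 4 h (0.111) or 24 h (0.104). The part of cell composition in the members' values was not tested. In whole cultures a larger number of cells of a type and more RNA per cell cannot be told apart.

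Across the 66 members the median difference of log2 signal between fenclorim and acetone was 2.41 at 4 h (range 1.19 to 4.87) and 2.35 at 24 h (range 1.06 to 4.36). Against CMP it was 1.83 at 4 h (range 1.03 to 5.49) and 1.6 at 24 h (range 1.01 to 5.2). These 4 differences chose the members and are given without a test. The fenclorim and acetone arrays did not overlap in 61 members at 4 h and 63 at 24 h. Among all 15261 probe sets tested, 14.4% and 14.2% passed an adjusted p of 0.05 as higher in these comparisons, and 25.0% and 27.7% as lower. Fenclorim and CMP arrays did not overlap in 65 members at 4 h and 60 at 24 h, beside 3.77% and 13.7% of all probe sets called higher and 3.56% and 17.2% called lower. The rule all but set these counts, and the percentages are shares of limma calls rather than of groups without overlap, so nothing is read from either.

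At the edge of the rule the smallest of the 4 differences was 1.01 in AT1G14120, 1.01 in AT3G44190 and 1.02 in AT4G36610, just inside. Just outside it was 0.997 in an unnamed probe set, 0.97 in AT3G56200 and 0.97 in AT1G29195. All 66 members passed the filter on low signals, which their fenclorim signal alone could secure. Leaving out each of the 18 arrays in turn gave 57 to 74 members, and 36 of the 66 met the rule every time.

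The roles below were assigned to named members after their values had been seen, and MAS5 signals, on a linear scale, are given in the order of replicates 1, 2 and 3, with 4 h before 24 h. Differences are between means of log2 signals of 3 arrays, with the standard error of the fit. Members tied to suberin or to transport and esterification of wall lipids, some by family alone, come first and are called lipid genes below. AT2G23540, AT5G37690 and AT1G74460 encode GDSL-type lipases, a family with members that assemble root suberin. AT2G23540 read 59.4, 77.8 and 92.8 in acetone at 4 h and 72, 78.8 and 70 at 24 h. CMP gave 63, 67.1 and 47.8, then 266, 196 and 176, and fenclorim 358, 471 and 118, then 410.0, 513 and 749. Fenclorim replicate 3 was the lowest array at 4 h and the highest at 24 h, and no fenclorim array overlapped acetone or CMP of its time. For AT2G23540 the fenclorim mean was above acetone by 1.84 and 2.88, and above CMP by 2.21 and 1.37, at 4 h and 24 h (log2 units, SE 0.37 each). AT5G37690 read 35.4, 38 and 46.9 in acetone at 4 h and 34.3, 45.6 and 46.7 at 24 h. CMP gave 35.9, 37.7 and 35.1, then 136, 98.6 and 96.8, and fenclorim 151, 247 and 75.1, then 240.3, 390.0 and 353. CMP overlapped acetone at 4 h and lay above every acetone array at 24 h. For AT5G37690 the fenclorim mean was above acetone by 1.82 and 2.94, and above CMP by 1.96 and 1.56, at 4 h and 24 h (log2 units, SE 0.31 each). AT1G74460 read 68.9, 94.3 and 95.5 in acetone at 4 h and 72.6, 67.3 and 73.6 at 24 h. CMP gave 91.9, 84.2 and 80.2, then 170.3, 123 and 129, and fenclorim 371, 719 and 462, then 351, 309 and 593. CMP lay within the acetone range at 4 h and above it at 24 h, and the fenclorim arrays were the highest at each time. For AT1G74460 the fenclorim mean was above acetone by 2.54 and 2.49, and above CMP by 2.54 and 1.52, at 4 h and 24 h (log2 units, SE 0.25 each). The fourth GDSL-type lipase, AT1G28600, read 165, 173 and 85.1 in acetone at 4 h and 95.3, 170.4 and 160.2 at 24 h. CMP gave 306, 208 and 222, then 127, 182 and 154, and fenclorim 557, 629 and 545, then 418, 501 and 281. Its lowest fenclorim array at 24 h, replicate 3, was above every acetone and CMP array of that time. For AT1G28600 the fenclorim mean was above acetone by 2.1 and 1.5, and above CMP by 1.25 and 1.35, at 4 h and 24 h (log2 units, SE 0.29 each).

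Lipid transfer proteins, small secreted carriers of waxes and of monomers for cutin and suberin, made up a further part. AT2G48130, known as LTPG15 and linked to suberin, read 47.2, 60.3 and 73 in acetone at 4 h and 50.5, 52.3 and 38.2 at 24 h. CMP gave 119.7, 296 and 98.6, then 173, 104 and 122, and fenclorim 224, 233 and 577, then 291, 153 and 585. CMP 4 h replicate 2 lay above both lower fenclorim arrays of that time, and fenclorim 24 h replicate 2 lay below the highest CMP array, so these groups overlapped. For AT2G48130 the fenclorim mean was above acetone by 2.39 and 2.67, and above CMP by 1.04 and 1.19, at 4 h and 24 h (log2 units, SE 0.47 each). AT5G13900 read 9.50, 6.84 and 18 in acetone at 4 h and 9.27, 17.7 and 14.5 at 24 h. CMP gave 33.4, 87.9 and 28.9, then 34, 19.4 and 22.4, and fenclorim 127, 138 and 349, then 55.8, 70.7 and 129. Replicate 3 was the highest fenclorim array at both times. The mean log2 signal of AT5G13900 in acetone was 3.40 and 3.74, under the mean level of the low-signal filter (4.19). The sizes of its differences from acetone are thus uncertain. For AT5G13900 the fenclorim mean was above acetone by 4.12 and 2.58, and above CMP by 2.06 and 1.7, at 4 h and 24 h (log2 units, SE 0.49 each). AT2G18370 read 57.7, 101 and 125 in acetone at 4 h and 95.2, 79.6 and 92 at 24 h. CMP gave 81.7, 101 and 81.1, then 158, 96.1 and 125, and fenclorim 350.3, 473 and 164, then 270.3, 643 and 319. Fenclorim replicate 3 stood lowest at 4 h and replicate 2 highest at 24 h. For AT2G18370 the fenclorim mean was above acetone by 1.74 and 2.1, and above CMP by 1.78 and 1.62, at 4 h and 24 h (log2 units, SE 0.37 each). AT3G58550 read 51, 75.1 and 139 in acetone at 4 h and 89, 52.9 and 86 at 24 h. CMP gave 73.8, 108 and 72.3, then 188, 74.4 and 116, and fenclorim 272, 301 and 135, then 157, 562 and 203. One acetone array exceeded the lowest fenclorim array at 4 h, and one CMP array did so at 24 h. For AT3G58550 the fenclorim mean was above acetone by 1.46 and 1.82, and above CMP by 1.42 and 1.15, at 4 h and 24 h (log2 units, SE 0.47 each).

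A pair of acyltransferases of the BAHD family was also placed here, AT5G07860 by its family alone. FACT joins caffeoyl groups to fatty alcohols, which yields the alkyl caffeates of suberin-associated root waxes. FACT read 22, 32.2 and 61.9 in acetone at 4 h and 34.2, 39.6 and 39.9 at 24 h. CMP gave 40.7, 72 and 38.8, then 97.8, 47.2 and 69.2, and fenclorim 168, 172 and 109.6, then 87.2, 233 and 162. Fenclorim 24 h replicate 1 lay below the highest CMP array of that time. For FACT the fenclorim mean was above acetone by 2.06 and 1.97, and above CMP by 1.6 and 1.12, at 4 h and 24 h (log2 units, SE 0.39 each). Its relative AT5G07860, whose substrate is not named in the annotation, read 95.9, 91.3 and 90.3 in acetone at 4 h and 105, 119.7 and 100.2 at 24 h. CMP gave 192, 163 and 184, then 107, 107 and 100.4, and fenclorim 517, 519.7 and 534, then 187, 316 and 195. Its fenclorim arrays were close together at 4 h, and at 24 h replicate 2 was the highest while CMP overlapped acetone. For AT5G07860 the fenclorim mean was above acetone by 2.5 and 1.06, and above CMP by 1.55 and 1.11, at 4 h and 24 h (log2 units, SE 0.17 each).

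Proteins of the cell wall formed a second group. AT4G38080, AT2G22510 and AT5G09480 encode hydroxyproline-rich glycoproteins, which are structural proteins of the wall. AT4G38080 read 82.6, 157 and 216 in acetone at 4 h and 134, 175 and 159.5 at 24 h. CMP gave 130.2, 251 and 95, then 626, 312 and 314, and fenclorim 746, 946 and 496, then 2095, 884 and 2486. At 24 h fenclorim replicate 2 was well below its companions but above all CMP arrays. For AT4G38080 the fenclorim mean was above acetone by 2.32 and 3.42, and above CMP by 2.27 and 2.08, at 4 h and 24 h (log2 units, SE 0.44 each). AT2G22510 read 25.5, 46.8 and 58.2 in acetone at 4 h and 30.1, 34 and 32 at 24 h. CMP gave 33.6, 46.9 and 35.6, then 168, 87.5 and 91, and fenclorim 129, 220.5 and 99.5, then 594, 294 and 897. Again replicate 2 was the lowest fenclorim array at 24 h, and CMP overlapped acetone at 4 h but not at 24 h. For AT2G22510 the fenclorim mean was above acetone by 1.78 and 4.07, and above CMP by 1.89 and 2.29, at 4 h and 24 h (log2 units, SE 0.39 each). AT5G09480 read 26.8, 42.7 and 52.8 in acetone at 4 h and 44.1, 47 and 43 at 24 h. CMP gave 28.8, 39 and 30.7, then 159, 82.9 and 108, and fenclorim 169.8, 199 and 53.7, then 233, 191 and 316. Fenclorim 4 h replicate 3 was close to the highest acetone array. For AT5G09480 the fenclorim mean was above acetone by 1.64 and 2.44, and above CMP by 1.91 and 1.1, at 4 h and 24 h (log2 units, SE 0.39 each). AT2G03200, an aspartyl protease, read 17.5, 21.9 and 46.1 in acetone at 4 h and 26.9, 22.4 and 22.7 at 24 h. CMP gave 19.4, 41.5 and 17.6, then 64.9, 30.9 and 43, and fenclorim 89.1, 88.5 and 57.3, then 103, 74.2 and 227. Fenclorim 24 h replicate 3 stood apart as the highest. For AT2G03200 the fenclorim mean was above acetone by 1.56 and 2.33, and above CMP by 1.67 and 1.44, at 4 h and 24 h (log2 units, SE 0.43 each). AT3G47380, an inhibitor of the invertase and pectin methylesterase type, read 57.8, 70.8 and 53.5 in acetone at 4 h and 61.3, 57.7 and 59.2 at 24 h. CMP gave 34.2, 50 and 45.5, then 22.2, 22.4 and 21, and fenclorim 250.3, 283 and 471, then 152, 76.8 and 177. In every CMP array the signal was below every acetone array of the same time. For AT3G47380 the fenclorim mean was above acetone by 2.42 and 1.1, and above CMP by 2.91 and 2.54, at 4 h and 24 h (log2 units, SE 0.28 each).

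AT1G14130 and AT1G14120 are next to each other in the gene table and encode the dioxygenases DAO1 and DAO2, of which DAO1 is the main enzyme that oxidises auxin. AT1G14130 read 53.1, 51.1 and 56.6 in acetone at 4 h and 63.6, 48.7 and 46.5 at 24 h. CMP gave 185, 194 and 116, then 196, 162 and 133, and fenclorim 765, 613 and 877, then 765, 549 and 681. Its 3 treatments formed separate ranges at both times, with acetone lowest, CMP between and fenclorim highest. For AT1G14130 the fenclorim mean was above acetone by 3.8 and 3.65, and above CMP by 2.21 and 2.03, at 4 h and 24 h (log2 units, SE 0.22 each). AT1G14120 read 44.2, 40.4 and 55.9 in acetone at 4 h and 39.9, 29.7 and 24.8 at 24 h. CMP gave 30.6, 36.6 and 23, then 103, 19.3 and 58.7, and fenclorim 153, 124 and 118, then 88.5, 68.9 and 155. CMP 24 h replicate 1 lay above fenclorim replicates 1 and 2 of that time, so these groups overlapped. For AT1G14120 the fenclorim mean was above acetone by 1.5 and 1.67, and above CMP by 2.15 and 1.01, at 4 h and 24 h (log2 units, SE 0.44 each). Other genes of auxin inactivation were looked up after the values had been seen, and are given without a test. GH3.3, which conjugates auxin to amino acids, was above acetone by 2.81 in fenclorim and 3.39 in CMP at 4 h. At 24 h it was at 3.04 and 1.86. GH3.17 was at -2.01 in fenclorim and -2.55 in CMP at 4 h, and at 0.02 and -0.39 at 24 h. WES1 was at -0.57 and -0.07 at 4 h, and at -0.35 and -0.07 at 24 h.

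Other enzymes formed the fourth group. AT5G51830, a sugar kinase of the fructokinase family, read 62.2, 62.5 and 62.1 in acetone at 4 h and 78.4, 82.2 and 58.1 at 24 h. CMP gave 528, 416 and 269, then 181, 212 and 195, and fenclorim 1238, 1377 and 1222, then 462, 561 and 556. Fenclorim exceeded CMP, and CMP exceeded acetone, in every array at both times. For AT5G51830 the fenclorim mean was above acetone by 4.36 and 2.86, and above CMP by 1.71 and 1.42, at 4 h and 24 h (log2 units, SE 0.2 each). AT4G02940, known as ALKBH10B and a demethylase of adenosines in mRNA, read 140.3, 105 and 115 in acetone at 4 h and 120.5, 142 and 116 at 24 h. CMP gave 525, 506 and 304, then 219, 253 and 218, and fenclorim 1229.8, 1034 and 842, then 542, 632 and 673. The 3 treatments were separate here too. For AT4G02940 the fenclorim mean was above acetone by 3.1 and 2.29, and above CMP by 1.24 and 1.42, at 4 h and 24 h (log2 units, SE 0.2 each). AT3G44190, an FAD-dependent oxidoreductase, read 194, 170.4 and 162 in acetone at 4 h and 211, 173 and 172 at 24 h. CMP gave 881, 564 and 466, then 299, 364 and 343, and fenclorim 2148, 2164 and 1806, then 527, 816 and 711. Its fenclorim signal at 24 h was in each array below every 4 h array. For AT3G44190 the fenclorim mean was above acetone by 3.54 and 1.87, and above CMP by 1.73 and 1.01, at 4 h and 24 h (log2 units, SE 0.21 each). AT4G36610, an alpha/beta hydrolase, read 23.4, 21.6 and 25.5 in acetone at 4 h and 15.9, 22.3 and 31.7 at 24 h. CMP gave 99.8, 219.8 and 106, then 46.8, 53.9 and 49.8, and fenclorim 266, 298 and 601, then 83.5, 137 and 90.3. Replicate 3 was far above the other fenclorim arrays at 4 h. For AT4G36610 the fenclorim mean was above acetone by 3.95 and 2.18, and above CMP by 1.45 and 1.02, at 4 h and 24 h (log2 units, SE 0.34 each).

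AT2G36970, a glycosyltransferase known as UGT86A1 that is listed by its locus and so was not removed by symbol, read 26.2, 17.6 and 15.5 in acetone at 4 h and 23, 39.9 and 41.5 at 24 h. CMP gave 49.3, 41.8 and 52.2, then 51.1, 55.3 and 68.4, and fenclorim 113, 86.6 and 124, then 178, 70 and 145. Fenclorim 24 h replicate 2 was the lowest of its group and close to the highest CMP array. For AT2G36970 the fenclorim mean was above acetone by 2.47 and 1.85, and above CMP by 1.17 and 1.07, at 4 h and 24 h (log2 units, SE 0.31 each). AT5G10830, a methyltransferase, read 41.9, 66.4 and 56.3 in acetone at 4 h and 69.9, 59.5 and 41.8 at 24 h. CMP gave 108, 123 and 72.6, then 48.5, 29.1 and 63.8, and fenclorim 214, 243 and 403, then 156, 104 and 145. CMP overlapped acetone at 24 h. For AT5G10830 the fenclorim mean was above acetone by 2.36 and 1.25, and above CMP by 1.48 and 1.57, at 4 h and 24 h (log2 units, SE 0.32 each). AT1G33110, a MATE transporter, which moves organic compounds out of the cytosol, read 33.7, 35.3 and 34.5 in acetone at 4 h and 45.7, 41.5 and 44 at 24 h. CMP gave 175, 153 and 117, then 88.4, 107 and 94.2, and fenclorim 368, 334 and 294, then 208, 224 and 228. The 3 treatments did not overlap at either time. For AT1G33110 the fenclorim mean was above acetone by 3.26 and 2.33, and above CMP by 1.18 and 1.19, at 4 h and 24 h (log2 units, SE 0.16 each).

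For 5 named members no role is given here. AT5G14730 read 26.1, 42.6 and 37.7 in acetone at 4 h and 41.2, 26 and 30.1 at 24 h. CMP gave 431, 695 and 403, then 105, 88.2 and 96.8, and fenclorim 869.7, 969 and 1249, then 561, 723 and 685. It had the highest difference from acetone of all members at both times, and CMP arrays lay between acetone and fenclorim. For AT5G14730 the fenclorim mean was above acetone by 4.87 and 4.36, and above CMP by 1.04 and 2.76, at 4 h and 24 h (log2 units, SE 0.24 each). AT5G66985 read 27, 19.7 and 27.3 in acetone at 4 h and 44.1, 31.1 and 24 at 24 h. CMP gave 4.18, 18.3 and 7.38, then 11.8, 6.37 and 20.2, and fenclorim 127, 192 and 145, then 105, 107 and 99.3. Every CMP array was below every acetone array at both times, while fenclorim was above. The mean log2 signal of AT5G66985 in CMP was 3.05 and 3.52, under the mean level of the low-signal filter (4.19). The sizes of its differences from CMP are thus uncertain. For AT5G66985 the fenclorim mean was above acetone by 2.64 and 1.69, and above CMP by 4.21 and 3.17, at 4 h and 24 h (log2 units, SE 0.45 each). AT4G30670 read 45.5, 88.2 and 159 in acetone at 4 h and 101, 51.8 and 31.5 at 24 h. CMP gave 21.8, 38.7 and 28.3, then 30.4, 15.4 and 38.5, and fenclorim 194, 352 and 112, then 79.1, 216 and 108. Acetone and fenclorim overlapped at both times. For AT4G30670 the fenclorim mean was above acetone by 1.19 and 1.16, and above CMP by 2.77 and 2.22, at 4 h and 24 h (log2 units, SE 0.54 each). AT4G24130 read 42.3, 36.4 and 40.8 in acetone at 4 h and 35.1, 36.2 and 47.5 at 24 h. CMP gave 51.8, 84.9 and 43.9, then 52.7, 34.3 and 34.9, and fenclorim 122, 165 and 222, then 91, 126 and 141. CMP 4 h replicate 2 was above the other CMP arrays. For AT4G24130 the fenclorim mean was above acetone by 2.05 and 1.58, and above CMP by 1.51 and 1.56, at 4 h and 24 h (log2 units, SE 0.27 each). AT1G56320 read 38.4, 53.3 and 59.1 in acetone at 4 h and 47.7, 57.4 and 45.1 at 24 h. CMP gave 38.5, 65.2 and 37.1, then 120.2, 65 and 105, and fenclorim 165, 217 and 116, then 202, 167 and 307. CMP overlapped acetone at 4 h and lay above it at 24 h. For AT1G56320 the fenclorim mean was above acetone by 1.7 and 2.13, and above CMP by 1.83 and 1.22, at 4 h and 24 h (log2 units, SE 0.3 each).

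**Figure D1:**
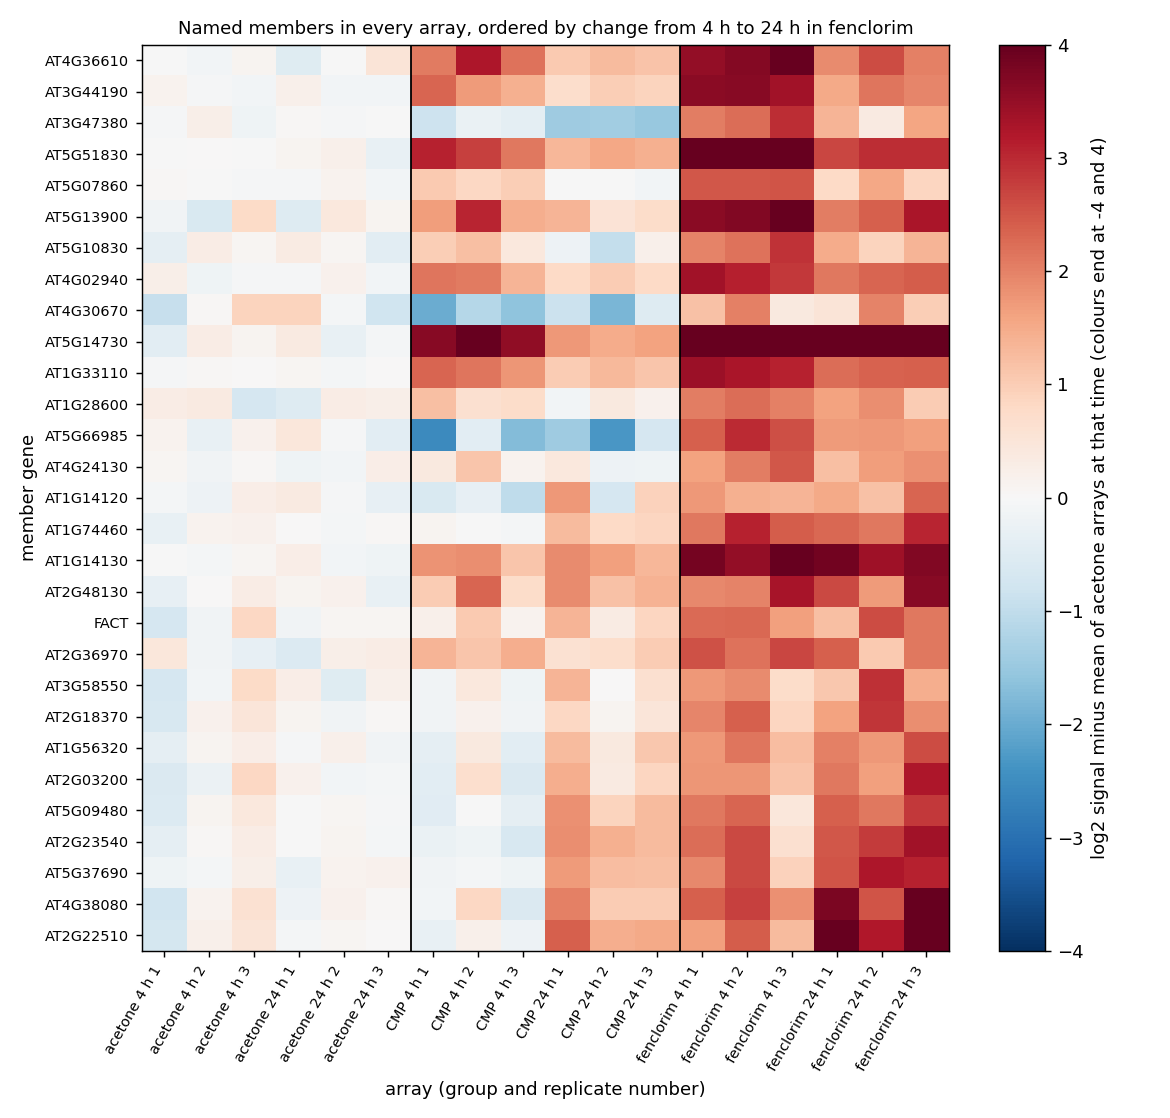
Log2 signal of the 29 named members (rows) in each of the 18 arrays (columns), as the difference from the mean of the acetone arrays at the same time, with colours that end at 4 on either side of 0. Fenclorim columns are red in every row at both times, whereas the CMP columns of the bottom rows are pale at 4 h and red at 24 h, and those of AT3G47380, AT5G66985 and AT4G30670 are blue at both times.

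The 37 unnamed members had a median fenclorim minus acetone difference of 2.57 at 4 h and 2.65 at 24 h, and a median fenclorim minus CMP difference of 1.9 and 1.79. One of them, singled out after its values were seen, was the probe set 249082_at. 249082_at read 3.05, 76.9 and 213 in acetone at 4 h and 61.2, 0.832 and 30.8 at 24 h. CMP gave 0.188, 45.8 and 13.6, then 23.9, 3.01 and 0.380, and fenclorim 253, 118 and 354, then 91.8, 45.4 and 328. Its replicates spread widely, acetone overlapped fenclorim at both times, and the SE of its differences was 2.02. Its mean log2 signal in CMP was 2.29 and 1.59, under the mean level of the low-signal filter (4.19), so no size is given for its gap to CMP, and it sets the upper end of the range of differences from CMP given above.

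The comparison of CMP with acetone asks whether the other compound moved the members too. The rule used this difference directly only in its upper bound, which dropped probe sets at 2 or more with both compounds at both times. The acetone and CMP means also entered the rule through their differences from fenclorim. The members' counts and medians are thus not independent of how they were chosen, and the values for all probe sets are given for scale only. At 4 h 29 of 66 members were called higher and 3 lower with CMP, by limma at an adjusted p under 0.05. Of all tested probe sets 13.8% were called higher and 23.3% lower. The members' median was 0.59 (range -2.91 to 3.83) and that of all probe sets -0.25. At 24 h the counts were 29 higher and 3 lower, beside 17.3% and 25.7%, with medians of 0.82 for members (range -1.95 to 1.78) and -0.13 for all. The lower end of the members' range at each time is the widely spread 249082_at (SE 2.02), which had no call. With arrays centred on their medians the whole table had 3009 higher and 1612 lower at 4 h and 3937 higher and 2476 lower at 24 h, in place of 2110 higher and 3559 lower and 2638 higher and 3929 lower. Members then had 34 higher and 1 lower at 4 h, and 36 higher and 3 lower at 24 h. The lower count at 4 h was 1 without CMP 4 h replicate 1, CMP 4 h replicate 3 or acetone 4 h replicate 3, and 5 without acetone 4 h replicate 1.

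At 4 h most of the enzymes and the transporter were higher with CMP. AT5G14730, for which no role is given, rose by 3.83 ± 0.24, adjusted p = 3.55e-09. The sugar kinase AT5G51830 rose by 2.65 ± 0.2, the hydrolase AT4G36610 by 2.5 ± 0.34 and the MATE transporter AT1G33110 by 2.08 ± 0.16. ALKBH10B (AT4G02940) rose by 1.86 ± 0.2, the oxidoreductase AT3G44190 by 1.81 ± 0.21, DAO1 (AT1G14130) by 1.59 ± 0.22 and UGT86A1 (AT2G36970) by 1.3 ± 0.31. Among the lipid genes the transfer protein AT5G13900 rose by 2.06 ± 0.49, from an acetone mean under the level of the low-signal filter. The acyltransferase AT5G07860, placed there by its family alone, rose by 0.96 ± 0.17. These 10 kept their call when any 1 array of the compared groups was left out. Calls as higher were made for 7 of 8 enzymes, 4 of 10 lipid genes and 0 of 5 wall proteins, beside 13.8% of all tested probe sets. These groups are small and were formed after the values had been seen, so no pattern is read from the counts. Of the 4 GDSL-type lipases 3 had no call, at -0.36 ± 0.37 (AT2G23540), -0.14 ± 0.31 (AT5G37690) and -0.00021 ± 0.25 (AT1G74460), nor did any of the 5 wall proteins, between -0.5 and 0.05.

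The other 5 named calls at 4 h depended on single arrays. AT5G66985 was lower by CMP (-1.56 ± 0.45, adjusted p = 0.0113), a call lost without CMP 4 h replicate 1 (-1.07, adjusted p = 0.0718). Its CMP mean was under the mean level of the low-signal filter, so the size is uncertain. AT4G30670 was also lower (-1.58 ± 0.54, adjusted p = 0.0286), a call lost without CMP 4 h replicate 1 (-1.38, adjusted p = 0.0984), CMP 4 h replicate 3 (-1.57, adjusted p = 0.0640), acetone 4 h replicate 2 (-1.56, adjusted p = 0.0682) or acetone 4 h replicate 3 (-1.14, adjusted p = 0.136) or, in a fit to all arrays, with arrays centred on their median (-1.29, adjusted p = 0.0716) or quantile normalization (-1.39, adjusted p = 0.0588). The lipase AT1G28600 was higher (0.85 ± 0.29, adjusted p = 0.0282), but not without CMP 4 h replicate 1 (0.68, adjusted p = 0.117) or acetone 4 h replicate 3 (0.52, adjusted p = 0.159). LTPG15 (AT2G48130) was higher (1.36 ± 0.47, adjusted p = 0.0303), but not without CMP 4 h replicate 2 (0.88, adjusted p = 0.163), acetone 4 h replicate 1 (1.19, adjusted p = 0.0979) or acetone 4 h replicate 2 (1.37, adjusted p = 0.0663). The methyltransferase AT5G10830 was higher (0.87 ± 0.32, adjusted p = 0.0388), but not without CMP 4 h replicate 1 (0.81, adjusted p = 0.104), CMP 4 h replicate 2 (0.71, adjusted p = 0.136), acetone 4 h replicate 1 (0.69, adjusted p = 0.145) or acetone 4 h replicate 3 (0.9, adjusted p = 0.0680) or, in a fit to all arrays, with no filter (0.87, adjusted p = 0.0510).

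At 24 h 5 of 8 enzymes, 4 of 10 lipid genes and 3 of 5 wall proteins were called higher with CMP, beside 17.3% of all tested probe sets. Here too the groups are small and were formed after the values had been seen, so no pattern is read from the counts. The lipases AT2G23540, AT5G37690 and AT1G74460 rose by 1.51 ± 0.37, adjusted p = 0.00351, by 1.39 ± 0.31 and by 0.97 ± 0.25, and the wall protein AT2G22510 by 1.78 ± 0.39. DAO1 (AT1G14130) stood at 1.62 ± 0.22, AT5G14730 at 1.6 ± 0.24, AT5G51830 at 1.44 ± 0.2, AT1G33110 at 1.14 ± 0.16, AT4G02940 at 0.87 ± 0.2 and AT3G44190 at 0.86 ± 0.21, all called higher. AT3G47380, the inhibitor of the invertase and pectin methylesterase type, fell (-1.44 ± 0.28, adjusted p = 0.000477), although fenclorim was above acetone in this gene at both times. These 11 kept their call when any 1 array of the compared groups was left out. DAO2 (AT1G14120) was at 0.66 ± 0.44 and FACT at 0.85 ± 0.39, neither with a call.

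Of the further calls at 24 h, AT4G38080 was higher (1.35 ± 0.44, adjusted p = 0.0193), but not without CMP 24 h replicate 1 (1.01, adjusted p = 0.102) or acetone 24 h replicate 1 (1.24, adjusted p = 0.0596). AT5G09480 was higher (1.33 ± 0.39, adjusted p = 0.0110), but not without CMP 24 h replicate 1 (1.08, adjusted p = 0.0602). LTPG15 (AT2G48130) was higher (1.48 ± 0.47, adjusted p = 0.0163), but not without CMP 24 h replicate 1 (1.28, adjusted p = 0.0689) or acetone 24 h replicate 3 (1.34, adjusted p = 0.0616). The hydrolase AT4G36610 was higher (1.16 ± 0.34, adjusted p = 0.0101), but not without acetone 24 h replicate 1 (0.91, adjusted p = 0.0556). AT1G56320 was higher (0.91 ± 0.3, adjusted p = 0.0222), but not without CMP 24 h replicate 1 (0.73, adjusted p = 0.101), CMP 24 h replicate 3 (0.83, adjusted p = 0.0745), acetone 24 h replicate 1 (0.88, adjusted p = 0.0563) or acetone 24 h replicate 3 (0.84, adjusted p = 0.0727). AT5G66985 was lower (-1.48 ± 0.45, adjusted p = 0.0131), but not without CMP 24 h replicate 2 (-1.05, adjusted p = 0.0847) or acetone 24 h replicate 1 (-1.25, adjusted p = 0.0586) or, in a fit to all arrays, with quantile normalization (-1.13, adjusted p = 0.0545). Here too its CMP mean was under the mean level of the low-signal filter, so the size is uncertain.

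**Figure D2:**
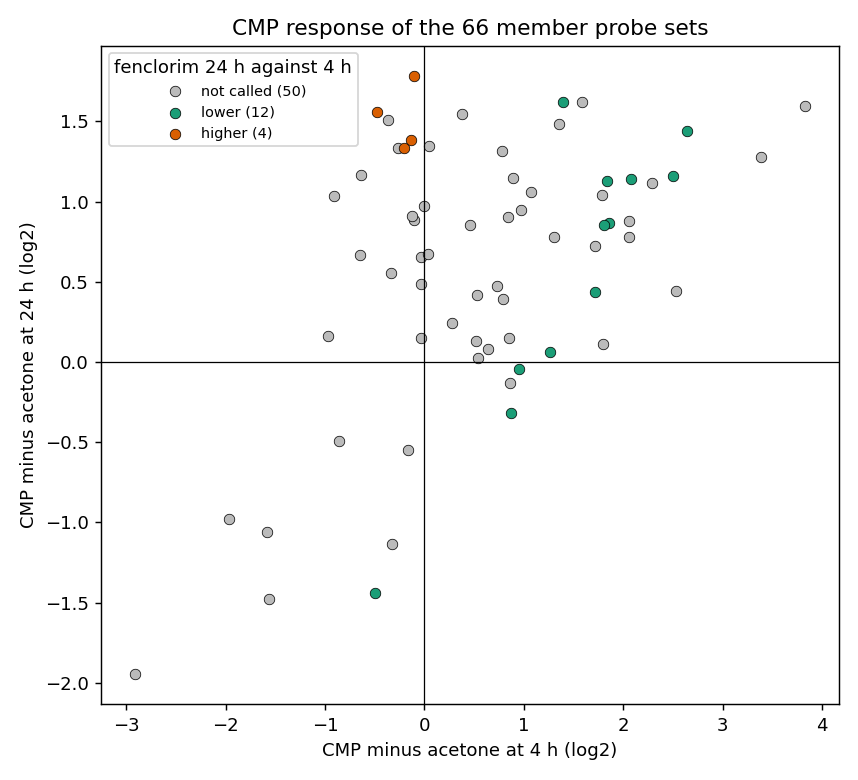
Difference of mean log2 signal between CMP and acetone at 4 h (horizontal axis) and at 24 h (vertical axis) for the 66 member probe sets, coloured by the call of fenclorim 24 h against fenclorim 4 h. The 4 members that rose between times in fenclorim lie near 0 at 4 h and above 1 at 24 h, and all but 1 of the 12 that fell lie to the right of 0 at 4 h.

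Changes between 4 h and 24 h were not used directly by the rule. It kept fenclorim high at both times, which limits how far the change in fenclorim can part from that in acetone or CMP. Its upper bound also favours a fall in CMP, relative to acetone, among members well above acetone in CMP at 4 h. In fenclorim 4 members rose and 12 fell, beside 4.57% and 4.89% of all probe sets, with a members' median of -0.41 and an overall median of -0.00079. The wall protein AT2G22510 rose by 1.93 ± 0.39, adjusted p = 0.00631. AT4G36610 fell (-1.84 ± 0.34), as did AT3G44190 (-1.59 ± 0.21, adjusted p = 0.000288), AT3G47380 (-1.34 ± 0.28), AT5G51830 (-1.29 ± 0.2) and the acyltransferase AT5G07860 (-1.21 ± 0.17). These 6 kept their call when any 1 fenclorim array was left out. The lipase AT5G37690 was higher (1.19 ± 0.31, adjusted p = 0.0258), but not without fenclorim 24 h replicate 3 (1.12, adjusted p = 0.0762), fenclorim 4 h replicate 1 (1.24, adjusted p = 0.0711) or fenclorim 4 h replicate 3 (0.74, adjusted p = 0.0694). AT4G02940, AT1G33110 and AT5G10830 were called lower, at -0.74 ± 0.2, -0.59 ± 0.16 and -1.05 ± 0.32, and these calls too depended on single arrays. That of AT4G02940 was lost without fenclorim 24 h replicate 1 (-0.65, adjusted p = 0.121), fenclorim 4 h replicate 1 (-0.61, adjusted p = 0.144) or fenclorim 4 h replicate 2 (-0.73, adjusted p = 0.0902) or, in a fit to all arrays, with arrays centred on their median (-0.7, adjusted p = 0.0533). That of AT1G33110 was lost without fenclorim 24 h replicate 1 (-0.55, adjusted p = 0.0906), fenclorim 24 h replicate 3 (-0.62, adjusted p = 0.0501), fenclorim 4 h replicate 1 (-0.51, adjusted p = 0.122) or fenclorim 4 h replicate 2 (-0.58, adjusted p = 0.0840) or, in a fit to all arrays, with arrays centred on their median (-0.55, adjusted p = 0.0586). That of AT5G10830 was lost without fenclorim 24 h replicate 1 (-1.17, adjusted p = 0.0784), fenclorim 24 h replicate 2 (-0.88, adjusted p = 0.0754), fenclorim 24 h replicate 3 (-1.11, adjusted p = 0.0782), fenclorim 4 h replicate 1 (-1.24, adjusted p = 0.0625), fenclorim 4 h replicate 2 (-1.14, adjusted p = 0.0882) or fenclorim 4 h replicate 3 (-0.78, adjusted p = 0.127) or, in a fit to all arrays, with arrays centred on their median (-1.01, adjusted p = 0.0786) or no filter (-1.05, adjusted p = 0.0596) or no intensity trend (-1.05, adjusted p = 0.0584) or quantile normalization (-0.98, adjusted p = 0.0728).

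The fenclorim counts depended on single arrays. Without fenclorim 24 h replicate 1 they were 2 higher and 7 lower, without fenclorim 24 h replicate 2 they were 7 and 13, and without fenclorim 24 h replicate 3 they were 1 and 12. Without fenclorim 4 h replicates 1, 2 or 3 they were 1 and 7, 5 and 9, or 1 and 11. Fenclorim 24 h replicate 2 was the lowest array of its group in 27 members, the highest in 27 and the middle one in 12. Fenclorim 4 h replicate 3 was the lowest in 35, the highest in 24 and the middle one in 7. With only the 6 fenclorim arrays in the fit 0 members were higher and 3 lower, beside 50 higher and 66 lower of all 15261 probe sets, and of the genes above AT3G44190 and AT5G51830 kept their call.

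In CMP 9 members rose between times and 17 fell, beside 5.34% and 6.51% of all probe sets. The upper bound of the rule bears on these counts, so no lean is read from them. For AT5G14730 and AT5G51830 it required a CMP effect against acetone under 2 at 24 h, after one above 2 at 4 h. The lipases AT2G23540 and AT5G37690 rose by 1.84 ± 0.37, adjusted p = 0.00409 and by 1.59 ± 0.31, and the wall protein AT5G09480 by 1.79 ± 0.39. AT5G14730 fell (-2.36 ± 0.24, adjusted p = 1.97e-05), as did AT5G51830 (-0.99 ± 0.2), AT4G02940 (-0.91 ± 0.2) and AT5G07860 (-0.78 ± 0.17). These 7 kept their call when any 1 CMP array was left out, and 8 other named members lost it without at least 1 of the 6 CMP arrays. The count of higher members was 4 without CMP 24 h replicate 1 or CMP 4 h replicate 1, and 5 without CMP 24 h replicate 3 or CMP 4 h replicate 3. In acetone no member and no other probe set was called between times by limma (0% higher and lower). At an unadjusted p under 0.05 there were 4 of 66 members, 4 of them higher, and 769 of 15261 probe sets. The acetone differences of members ran from -1.66 to 0.8 with a median of -0.03, and the lower end is again 249082_at (SE 2.02).

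**Figure D3:**
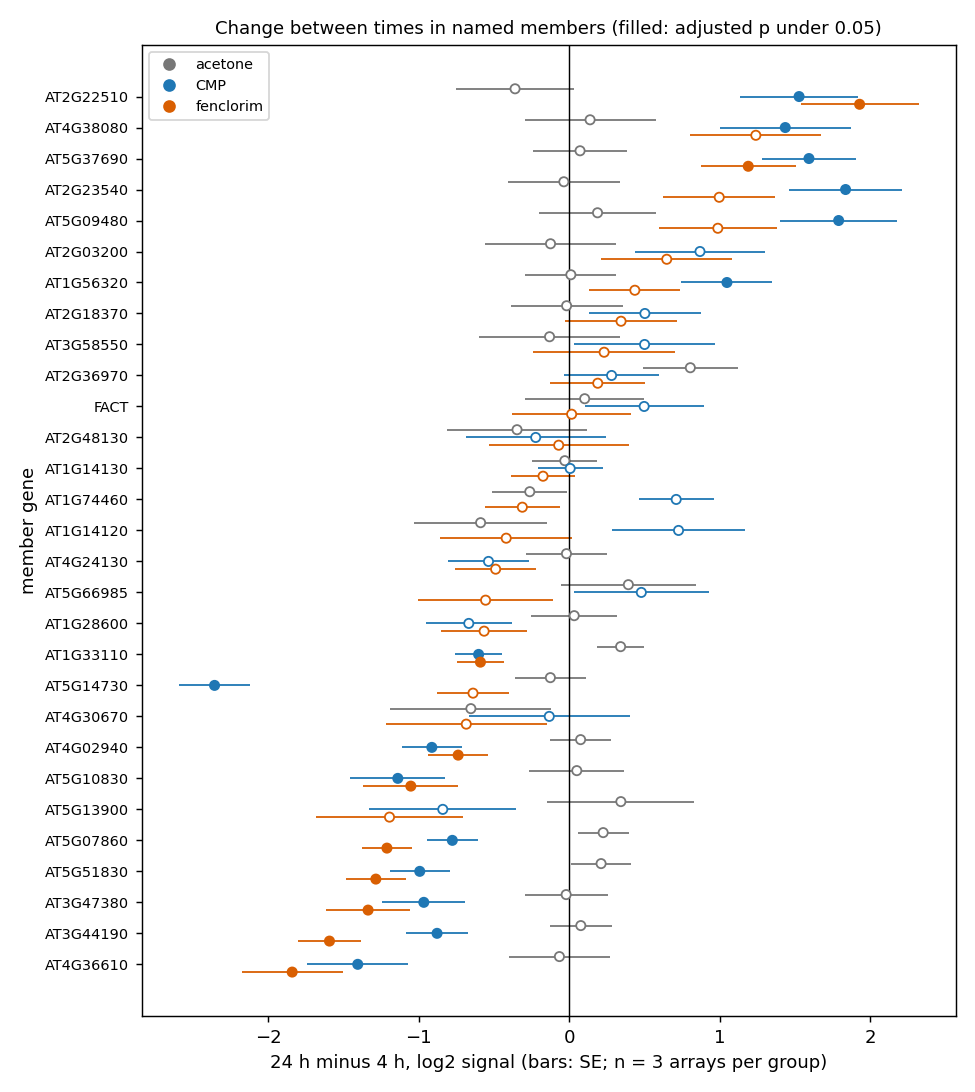
Difference of mean log2 signal between 24 h and 4 h in acetone, CMP and fenclorim (horizontal axis) for the 29 named members (vertical axis), with bars of 1 SE and filled points for adjusted p under 0.05. The 3 hydroxyproline-rich proteins and the lipases AT2G23540 and AT5G37690 stand at the right in both compounds, AT4G36610, AT3G44190 and AT5G51830 at the left, and all acetone points are open.

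**Figure D4:**
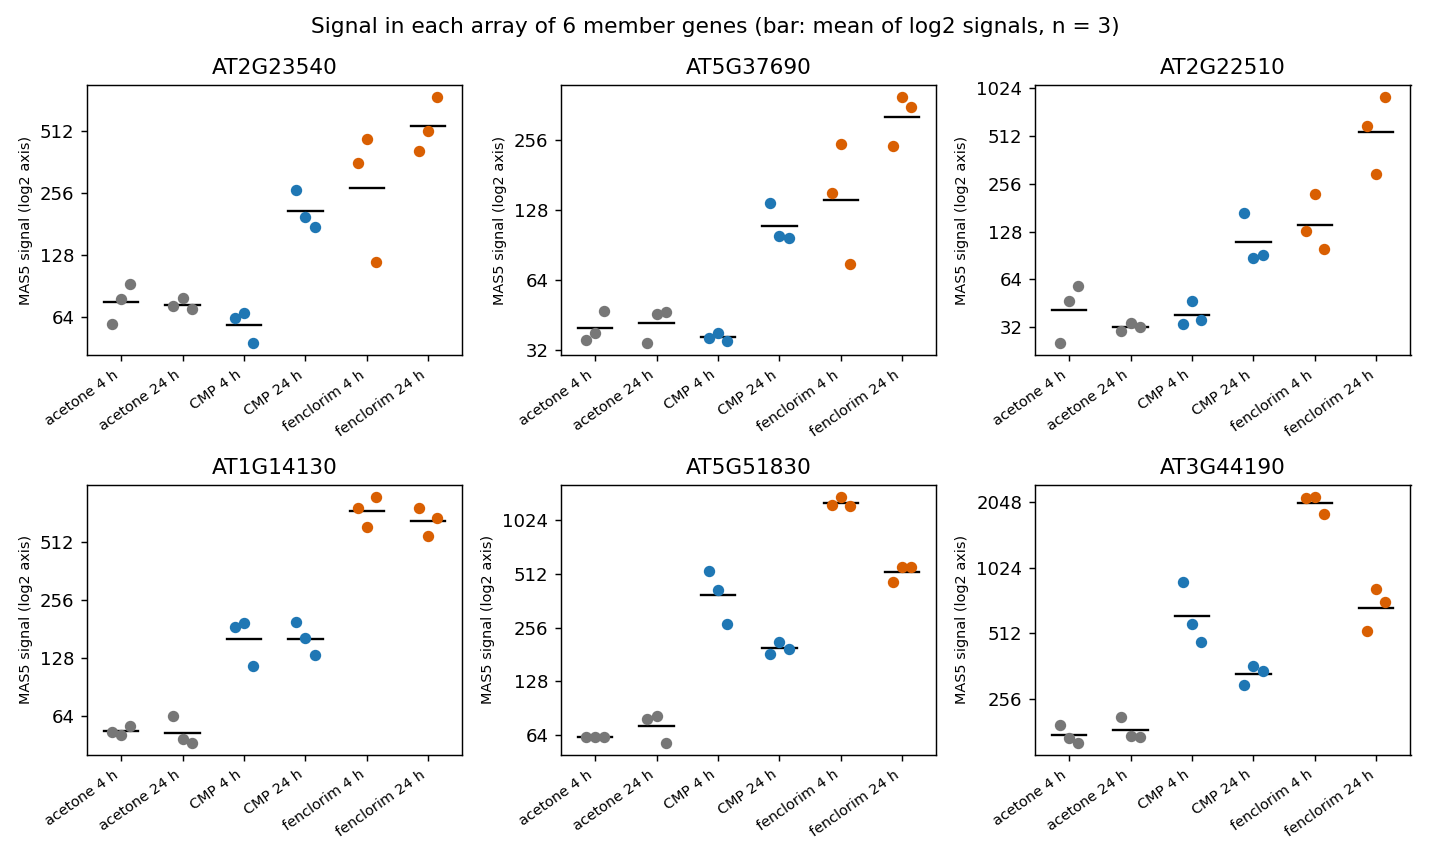
MAS5 signal on a log2 axis in each of the 3 arrays (points) of the 6 groups for 6 members, with the mean of the log2 signals as a bar. AT2G23540, AT5G37690 and AT2G22510 are at acetone level in CMP at 4 h and above it at 24 h, AT1G14130 is level over time in each treatment, and AT5G51830 and AT3G44190 are lower at 24 h than at 4 h in both compounds.

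Beside the members, 9 lists of stress and metabolic genes were looked up. The lists were chosen with earlier results of these data known, so their counts are description and no independent support. Together the lists held 145 loci, of which only 14 were named on the array, all tested, and none of these 14 was a member. The other loci could not be matched, so some may be among the 37 unnamed members. The lists of ABC transporters, of phi class glutathione transferases with glutathione metabolism, and of cytochromes P450 had no named gene. Of 18 planned genes of amino acid catabolism, as used in sugar starvation, 6 were named on the array. All 6 were lower in fenclorim than in CMP at 24 h, beside 17.2% of all probe sets, and at 4 h no call was made. With CMP 5 of the 6 were above acetone at 24 h and 3 at 4 h, beside 17.3% and 13.8% of all probe sets, among them IVD (2.18 ± 0.33 at 24 h), ETFQO (2.01 ± 0.25) and MCCA (1.76 ± 0.28). AT4G33150 was above acetone at 24 h (1.19 ± 0.4, adjusted p = 0.0245), but not without CMP 24 h replicate 1 (1.05, adjusted p = 0.0858), CMP 24 h replicate 3 (1.2, adjusted p = 0.0556), acetone 24 h replicate 1 (1.19, adjusted p = 0.0532) or acetone 24 h replicate 3 (1.11, adjusted p = 0.0745). The lower values against CMP include IVD of leucine breakdown (-1.93 ± 0.33, adjusted p = 0.000598), MCCA of the methylcrotonyl-CoA carboxylase (-1.86 ± 0.28), AT4G33150 of lysine breakdown (-1.85 ± 0.4) and ETFQO, which passes the electrons on to respiration (-1.65 ± 0.25). Against acetone they were not called in fenclorim at 24 h, while IVD (1.39 ± 0.33), MCCA (1.47 ± 0.28) and ETFQO (1.3 ± 0.25) were higher at 4 h. D2HGDH was lower than in CMP (-1.74 ± 0.52, adjusted p = 0.0197), but not without CMP 24 h replicate 1 (-1.65, adjusted p = 0.0621), CMP 24 h replicate 2 (-1.74, adjusted p = 0.0513), fenclorim 24 h replicate 1 (-1.24, adjusted p = 0.113) or fenclorim 24 h replicate 3 (-1.57, adjusted p = 0.0690).

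In the other lists the counts were small. The glutaredoxin GRX480 was higher in fenclorim than in acetone at 4 h (3.98 ± 0.31, adjusted p = 5.73e-08) and 24 h (2.89 ± 0.31), and above CMP at 4 h (1.27 ± 0.31, adjusted p = 0.0176) but without a call at 24 h (0.22 ± 0.31). With CMP it was called above acetone too, by 2.71 ± 0.31 at 4 h and 2.67 ± 0.31 at 24 h. Of the 3 antioxidant genes NQR was also above acetone in fenclorim at 4 h (0.57 ± 0.17), and SRX had no call in these comparisons. The glyoxylate cycle enzyme ICL had mean signals of 71.1 and 3.55 in acetone, 31.8 and 49.3 in CMP and 67.3 and 263 in fenclorim, at 4 h and 24 h. In fenclorim it was called above acetone at 24 h (adjusted p = 0.000779), against an acetone mean so dim that the size of the difference is not given, and not at 4 h (0.03 ± 1.14) or against CMP. With CMP it was also called above acetone at 24 h (adjusted p = 0.00495). AIM1 of beta-oxidation had no call against acetone or CMP. AT2G04400 of tryptophan synthesis (1.9 ± 0.3) and OPCL1 of jasmonate synthesis (0.71 ± 0.25) were above acetone in fenclorim at 4 h and had no call against CMP. With CMP both were called above acetone at 4 h too (1.69 ± 0.3 and 0.9 ± 0.25), and AT2G04400 also at 24 h (1.1 ± 0.3). SAG101, linked to senescence and immunity, was lower in fenclorim than in CMP at 4 h (-1.45 ± 0.41, adjusted p = 0.0374). Against acetone at 4 h it had no call in fenclorim (0.09 ± 0.41) and was higher in CMP (1.54 ± 0.41, adjusted p = 0.00701). The GDSL-type lipase AT2G19060, looked up after the values had been seen, was in fenclorim at -0.45 and 0.14 against acetone and at -0.32 and -0.3 against CMP (SE 0.83 each). Its group mean signals were only 17.6 to 27.2, so no absence of a rise is read from it. Its 4 relatives among the members were chosen by the rule for a rise. The call of GRX480 against CMP at 4 h was lost without CMP 4 h replicate 1 (1.15, adjusted p = 0.0879), CMP 4 h replicate 3 (1.18, adjusted p = 0.0794) or fenclorim 4 h replicate 1 (1.16, adjusted p = 0.0748). That of SAG101 was lost without CMP 4 h replicate 1 (-1.12, adjusted p = 0.193), CMP 4 h replicate 3 (-1.5, adjusted p = 0.0929), fenclorim 4 h replicate 1 (-1.57, adjusted p = 0.0663), fenclorim 4 h replicate 2 (-1.61, adjusted p = 0.0665) or fenclorim 4 h replicate 3 (-1.17, adjusted p = 0.121). In fenclorim NQR lost its call without acetone 4 h replicate 1 (0.5, adjusted p = 0.0554), and OPCL1 without acetone 4 h replicate 2 (0.62, adjusted p = 0.110), acetone 4 h replicate 3 (0.58, adjusted p = 0.122), fenclorim 4 h replicate 1 (0.59, adjusted p = 0.123) or fenclorim 4 h replicate 2 (0.69, adjusted p = 0.0852). With CMP the 4 h call of OPCL1 was lost without CMP 4 h replicate 1 (0.69, adjusted p = 0.0638).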

How the data were processed

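Transcripts were measured on 18 Affymetrix ATH1 arrays, whose probe sets stand for genes. Each deposited value is an intensity on a linear scale, which the authors made with MAS5 in GCOS, per the submitters' processing notes. Neither a version nor a scaling target was found. Every array had a mean of 100.0 after trimming 2% at either end, and no pair of arrays was identical. Signals were taken to log2 without further scaling. Of 22810 probe sets 64 were Affymetrix controls and were left out. Genes were named from the platform annotation and RefSeq's gene table (TAIR10.1): 13513 probe sets had 1 gene, 503 several and 8730 were not listed, and 13436 matched a locus. A list gene with several probe sets was represented by its brightest.

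Tests kept the 15261 probe sets whose signal exceeded the array's 40th percentile at least 3 times. limma 3.58.1 (R 4.3.3) estimated the 6 group means together, with an intensity trend, and Benjamini-Hochberg adjustment ran over all of these probe sets. The model was tested on simulated data. Further steps used Python 3.11.15, pandas 2.3.3, numpy 2.4.6 and matplotlib 3.10.9. The rule for named genes gave values in every array for the 16 named members with the highest smallest rule difference and for up to 8 called members per comparison and direction, and the 3 remaining named members were added. The members and lists were chosen with earlier results of these data known. Alternatives were quantile normalization, median centring, offsets added to signals, other filters, only the compared groups, no trend, a replicate block and leaving out each array. Of 45 pairs of arrays with the same replicate number in different groups, 12 had deviations that correlated above 0.1, so the numbers were not taken to pair samples. Promoter motifs were planned and not analysed here.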

Additional observations from a re-analysis of the deposited data

Results flagged for a closer look

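The effect of CMP against acetone differed between 24 h and 4 h in 4 named members, by a test of the difference itself in limma. The effect was smaller at 24 h in each. The rule left out probe sets at 2 or more above acetone with both compounds at both times. AT5G14730, AT5G51830 and AT1G33110 were above 2 in fenclorim at both times and in CMP at 4 h. Their CMP effect at 24 h thus had to be under 2, which fixed the direction of the difference. Their p-values are given for scale and are no independent support. AT5G14730 differed by -2.23 ± 0.34 (adjusted p = 0.00292), the sugar kinase AT5G51830 by -1.2 ± 0.28 (adjusted p = 0.0294), the acyltransferase AT5G07860 by -1.0 ± 0.24 (adjusted p = 0.0318) and the MATE transporter AT1G33110 by -0.94 ± 0.22 (adjusted p = 0.0287). The call of AT5G14730 was kept without any 1 array. Of the 12 acetone and CMP arrays, AT5G51830 kept its call without acetone 4 h replicate 2, acetone 24 h replicate 3 or CMP 4 h replicate 3 (without the others -1.26 to -0.98, adjusted p 0.0508 to 0.0879). AT5G07860 kept it without acetone 4 h replicate 1 or CMP 4 h replicate 2 (without the others -1.06 to -0.93, adjusted p 0.0530 to 0.0885). AT1G33110 kept it without acetone 4 h replicate 2, CMP 4 h replicate 3 or CMP 24 h replicate 2 (without the others -0.98 to -0.82, adjusted p 0.0529 to 0.0896). Among all 66 members 9 were called lower and 0 higher, beside 2.21% and 0.839% of all probe sets. The upper bound of the rule favours members whose CMP effect is smaller at 24 h, so no lean is read from these counts. At an unadjusted p under 0.05 there were 20 lower and 13 higher, beside 2459 of all 15261 in either direction. The lower count was 5 without CMP 24 h replicate 1, CMP 4 h replicate 1, acetone 24 h replicate 2 or acetone 4 h replicate 3, and the higher count was 1 without CMP 24 h replicate 2 or CMP 4 h replicate 1 and 3 without acetone 4 h replicate 1. For the 3 GDSL-type lipases called higher with CMP at 24 h and not at 4 h, the difference itself missed the threshold, at 1.87 ± 0.53 (adjusted p = 0.0656) in AT2G23540, 0.97 ± 0.35 (adjusted p = 0.162) in AT1G74460 and 1.52 ± 0.45 (adjusted p = 0.0758) in AT5G37690.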

How the results depend on the processing

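The rule found 69 members with quantile normalization, 98 with arrays centred on their medians, and 56 with an offset of 16, an alternative chosen after seeing the data, of which 61, 66 and 54 were among the 66. Median centring moved the median of all probe sets from -0.24 to 0.25 for fenclorim minus acetone at 24 h, where the whole table then had 4786 higher and 1624 lower in place of 2160 higher and 4230 lower, and 3474 higher and 1753 lower in place of 2198 higher and 3819 lower at 4 h. Against CMP at 24 h it gave 3205 higher and 1767 lower in place of 2088 higher and 2626 lower. The members' median with centring was 2.75 and 2.84 against acetone at 4 h and 24 h and 1.83 against CMP at 24 h. Against acetone it was 2.13 and 1.92 with the offset of 16, and 2.61 at 24 h with quantile normalization. Centring left 1 member lower with CMP at 4 h. With only the compared groups in the fit, members between times in fenclorim were 0 higher and 3 lower (all 15261 probe sets: 50 higher and 66 lower), and 8 were higher in the difference of CMP effects between times (all: 301). A replicate block left 2 members higher in fenclorim between times (11 lower) and moved no other count of members by over 1.5 times. It ended the call of AT5G07860 in the difference of CMP effects (adjusted p = 0.0501), of AT5G10830 with CMP at 4 h (0.0556) and between times in fenclorim (0.0689), and of AT4G38080 and AT1G56320 between times in CMP (0.0654 and 0.0521). The causes were not tested. Leaving out single arrays gave, for higher and lower members, 23 to 29 and 1 to 5 with CMP at 4 h, 22 to 29 and 2 to 3 at 24 h, 1 to 7 and 7 to 13 between times in fenclorim, 4 to 9 and 13 to 17 in CMP, and 0 to 3 and 5 to 11 for the difference of CMP effects. Members' medians were then 2.32 to 2.54 and 2.23 to 2.47 against acetone, and 1.7 to 2.04 and 1.48 to 1.74 against CMP. No called value of a named member changed sign under any alternative run.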
